A study of Hordeum vulgare with 2 samples.

Results

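The microRNA families miR162, miR168 and miR390 act on the small RNA machinery itself, and 257 of the 57909 cleavage-site records in a degradome series of barley shoots carry their names. A record is 1 small RNA, 1 transcript and 1 predicted cut position. Members were the records whose small RNA name holds miR162, miR168 or miR390 with no further digit, in upper or lower case. There were 72 such records of 17485 in the library of cultivar ZD9 and 185 of 40424 in that of cultivar XZ153. They fell under 9 names, with 13 genes under miR162, 84 under miR168 and 67 under miR390 over both lists. HORVU3Hr1G087450 and HORVU3Hr1G115990 were listed under both miR168 and miR390.

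Degradome sequencing captures the 5′ ends of uncapped RNA, so a microRNA-guided cut appears as reads that begin at 1 nucleotide of the target. The series, on microRNAs of barley under low potassium, holds 1 such library of shoots from each of ZD9 and XZ153, grown in hydroponics. Seedlings with 2 leaves received 0.01 mM or 1 mM potassium, and the labels do not say from which level, or mixture of levels, a library came, nor how many plants entered it. With 1 library per cultivar, no difference between cultivars was tested and none has a replicate check.

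In plants, miR162 guides the cleavage of DCL1, the Dicer that makes microRNAs, and miR168 that of AGO1, the main Argonaute that carries them, so both close feedback loops on the pathway. miR390 works differently: loaded into AGO7, it acts on TAS3 transcripts, which carry a pair of miR390 sites and are turned into small interfering RNAs against auxin response factors. The guide strand is the 3p arm of the miR162 hairpin and the 5p arm of the miR168 and miR390 hairpins. The other arm is normally discarded.

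The transcript IDs of the lists could not be paired with gene names here, so DCL1, AGO1, TAS3 and the other genes of the pathway are not named below, and a site is called by its transcript ID. Positions count bases along the transcript, and no source used here states the transcript release or the genome build. In bulk shoot RNA, fewer cells with a cut and less cut RNA per cell cannot be told apart.

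The 9 small RNAs are shown because the lists hold both arms, trimmed forms and forms from other species, and the printed sequence shows which strand each name is. Capitals mark the seed, bases 2 to 8 from the 5′ end.
bra-miR162-3p: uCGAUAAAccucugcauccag
hvu-miR168-5p: uCGCUUGGugcagaucgggac
aly-miR168a-5p: uCGCUUGGugcaggucgggaa
hvu-miR168-3p_L-3: cCCGCCUUgcaccaagugaau
mes-MIR168a-p5_2ss13CA18GC: gUUGAGAUcggaaagaac
ata-miR390-5p: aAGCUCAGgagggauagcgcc
mtr-miR390_R+1: aAGCUCAGgagggauagcgcca
bna-miR390a_L+2: aAAAGCUCaggagggauagcgcc
ata-miR390-3p: cGCUAUCUauccugagcucc

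The prefixes name the species of each annotated microRNA: hvu is barley, ata Aegilops tauschii, aly Arabidopsis lyrata, bra Brassica rapa, bna Brassica napus, mtr Medicago truncatula and mes cassava. miR162 was present under its guide arm alone. The barley and A. lyrata forms of miR168-5p share the seed CGCUUGG and differ by A14G and C21A, counted from the 5′ end of the barley form. The name with L+2 carries no arm, but its 23 bases hold the whole miR390-5p sequence after 2 extra bases at the 5′ end, so its seed and its predicted cut are shifted by 2. The name with R+1 is miR390-5p with 1 more base at the 3′ end. Both are counted here with the guide arm. The cassava hairpin-arm name is 18 bases long, and its longest run shared with barley miR168-5p was 7 bases, so its records are kept apart from those of the guide strand.

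Guide-strand names held 37 of the 67 ZD9 records with values and 121 of the 185 XZ153 records. Each position is listed once, under 1 name, so forms of nearly the same sequence compete for it and their counts are not independent. In XZ153 aly-miR168a-5p had 65 records on 49 genes, against 12 records on 9 genes for the barley form. The opposite arm ata-miR390-3p had 44 records on 35 genes, more than the 13 records on 9 genes of its guide partner ata-miR390-5p. All miR390 guide-strand names together had 25 records on 18 genes. The barley miR168 opposite arm had 6 records on 6 genes and the hairpin-arm name 14 on 12. bra-miR162-3p had 19 records on 13 genes, bna-miR390a_L+2 had 11 on 9, and mtr-miR390_R+1 had 1 record. In the shorter ZD9 list ata-miR390-3p led with 24 records on 12 genes, ahead of aly-miR168a-5p with 17 records on 9 genes. The other 7 names had 1 to 5 records each there.

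The ZD9 list has values for the transcript IDs up to HORVU2Hr1G036110.5, 15544 records in all, and XZ153 has 8350 records up to the same ID. Of the 72 ZD9 members 67 had values. The other 5, on 3 genes, had a position and a name alone, and the same 5 positions were category 4 in XZ153. Over the IDs that both lists cover, the 3 families were listed on 37 genes in ZD9 (exact Poisson 95% interval 26.1 to 51.0) and 28 in XZ153 (18.6 to 40.5). Of these, miR162 had 3 genes in each library, miR168 had 15 and 12, and miR390 had 19 and 13. The whole XZ153 list held 138 genes of the families (116 to 163). The intervals cover counting error only, and neither library's depth is known.

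Being listed is a low bar, and 4 deposited values grade a record. The Allen score is a mismatch penalty, so lower is better, and 4 or less is the usual limit for a plant microRNA target. The free energy ratio divides the pairing energy of the site by that of a perfect match, and no record lay below 0.65. The category compares the reads at the position with those on the rest of the transcript, from 0 for the highest position to 4 for a single read. The deposited p-value, which is not adjusted, asks how often an alignment that good meets a position of that category by chance.

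No record of the 3 families met either of the 2 standards used here for a microRNA-guided cut. The first, called supported here, joins categories 0 to 2 to a deposited p-value no higher than 0.05, and 0 of 67 ZD9 records and 0 of 185 XZ153 records met it. Over all records it was met by 0.695% in ZD9 and 0.675% in XZ153. An Allen score of at most 4 was likewise reached by 0 of 67 and 0 of 185 records, where 3.68% and 3.74% of all records reached it. All records include many small RNAs shorter than those of most members, and the score was not adjusted for length. A count of 0 allows a share of up to 4.48% of records in ZD9 and 1.62% in XZ153. For the first standard the background lies below both limits, so these counts cannot be told apart from it. For the Allen score the XZ153 background lies above its limit and the ZD9 background below. Isoforms repeat 1 site, so the records are not independent and the limits are too tight.

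Pairing over all members was somewhat weaker than in the lists as a whole, by medians not adjusted for small RNA length. The median Allen score of the members was 9.5 in ZD9 and 9 in XZ153, against 8.5 over all records of either list. Of all records, only 7567 of 15544 in ZD9 and 19869 of 40424 in XZ153 reached position 19 of the small RNA. All member names but the hairpin-arm name have 20 to 23 bases, which leaves more room for mismatch penalties. The median free energy ratio was 0.666 in ZD9 and 0.667 in XZ153, against 0.681 for all records of each. In ZD9 the median ratio of the 5 miR162 records was 0.685, above that of all records. miR168 in ZD9 had a median Allen score of 7.75, lower than that of all records, and a median ratio of 0.681, while in XZ153 its medians were 9 and 0.666. The lowest Allen score was 4.5 in ZD9 and 5 in XZ153, and the lowest of a guide strand was 7 in ZD9 and 5 in XZ153. An Allen score of at most 5 was held by 6 records on 3 genes in ZD9, where 8.82% of all records reached it, and by 2 records on 2 genes in XZ153, where 8.63% did. The 6 ZD9 records are thus about as frequent as in the whole list. The median G and C content of the target sites was 72.1% and 70.0% for miR168 and 67.3% and 69.6% for miR390 in ZD9 and XZ153, above the 62.5% and 63.2% of all records. For miR162 it was 61.9% and 57.9%, below them.

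**Figure D1:**
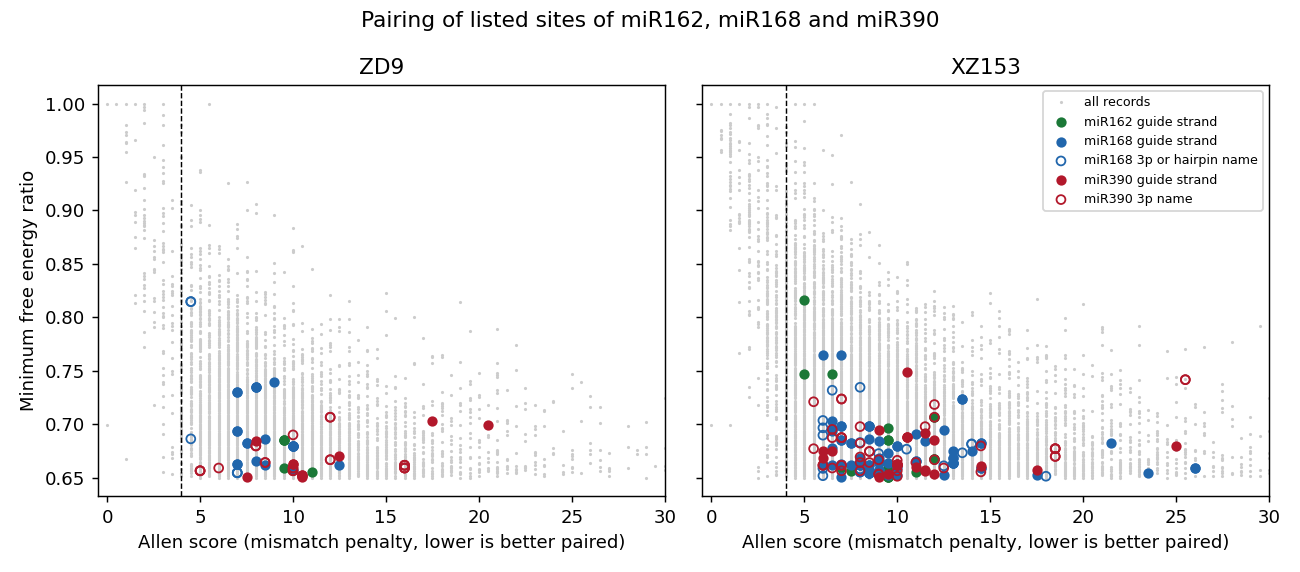
Allen score (x axis, penalty points, lower is better) against the free energy ratio (y axis, site over perfect pairing) for each record in ZD9 and XZ153, with all records in grey (those of the highest scores lie beyond the right edge), guide strands of the 3 families filled and their other arms open. All coloured points lie right of the line at a score of 4, and most lie near the lowest ratio of 0.65.

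miR162 held the best-paired guide-strand sites, all in XZ153 and on transcript IDs past the end of the ZD9 values. The sites of the lowest Allen scores and the lowest p-values are shown 5′ to 3′ on the transcript, with capitals for bases paired to the small RNA, G:U pairs included.
HORVU3Hr1G015640.1: ccGGAUGCAGGGGUUcAUCGA
HORVU5Hr1G065960.7: aUGGUGCAGAGGUUUGUgGA
HORVU5Hr1G079690.1: aUGGAUGCGGAgGGUUUGuUCGA
HORVU2Hr1G102200.4: aUGGGUGCAGGGGUAUCug
HORVU1Hr1G078410.3: gcGGGUGCAGAGGaagAUCGu
The site of HORVU3Hr1G015640.1, bases 1260 to 1280 with the cut at 1271, had an Allen score of 5, a free energy ratio of 0.816, category 4 and a p-value of 0.147. HORVU5Hr1G065960.7, cut at 2784, also scored 5, with a ratio of 0.747, category 4 and a p-value of 0.254. HORVU5Hr1G079690.1, cut at 1740, scored 6.5 with the same ratio, category 4 and a p-value of 0.260. The best-paired miR162 sites each rested on the lowest read class, a single read. This class held 15 of the 19 miR162 records in XZ153 and 73.4% of all records there. At an Allen score of 7, HORVU5Hr1G067570.1 was category 2 with a p-value of 0.651, and HORVU2Hr1G064770.5 was category 4.

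The miR162 site with the highest read class was weakly paired. At position 1854 of HORVU2Hr1G102200.4 the cut was the highest position of its transcript, category 0, with a p-value of 0.122 but an Allen score of 9.5 and a ratio of 0.651. The same target bases on isoforms 5 and 6 of the gene were category 4. HORVU7Hr1G088560.1, cut at 1405, was category 2 with a p-value of 0.229 and an Allen score of 12, and isoform 2 was category 4. Within these genes the read class thus changed between isoforms that share the site.

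In ZD9 miR162 had 5 records on 3 genes, with Allen scores of 9.5 to 11. On HORVU1Hr1G078410 isoform 3, position 1514, held 2 reads in category 3 with a p-value of 0.464, and isoforms 2 and 4 held 1 read each in category 4. For XZ153 the p-value of isoform 3 was 0.405 in category 2, and isoform 4 was category 4. HORVU1Hr1G072220.4 at position 531 and HORVU1Hr1G017480.1 at position 386 were category 4 in both libraries, with 1 read each in ZD9. The same 3 genes were thus listed for miR162 in both libraries over the shared IDs, 3 of 3 in each.

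The lowest Allen scores of miR168 in ZD9 belonged to strands other than the guide. They are shown with the guide-strand sites of the lowest Allen score, the lowest p-value and the most reads, with capitals for paired bases.
HORVU2Hr1G011610.11, miR168-3p: GUUCACUGGGCAGGGCGGG
HORVU1Hr1G094880.5, hairpin-arm name: GUUCUUUgCGAUCCAAU
HORVU1Hr1G061380.1, hvu-miR168-5p: agUUCGAUCUGCAgCGGGCGA
HORVU1Hr1G064560.20, aly-miR168a-5p: cgCCCgGGCaCUGCGCgCGAGCGA
HORVU1Hr1G058860.1, aly-miR168a-5p: gaCUCGAgCCUGCGCCuGCGA
HORVU1Hr1G079370.1, aly-miR168a-5p: ggCCUGACCUGACCAAGCcg
HORVU3Hr1G008400.2, aly-miR168a-5p: aUCCuCGGCCUGCACCGGCGG
The miR168-3p site of HORVU2Hr1G011610 scored 4.5 with a ratio of 0.815 and held 1 read in category 4 on each of isoforms 11 and 14, with p-values of 0.133 and 0.162. The hairpin-arm site of HORVU1Hr1G094880.5, cut at 1810, also scored 4.5 but had a ratio of 0.686, 1 read and a p-value near 1. Neither gene was listed for these names in XZ153 at that site.

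miR168-5p carried the highest read counts per record of the 3 families. Counts are per isoform and were not summed over isoforms that share a site. HORVU1Hr1G058860.1 held 7 raw reads at position 593, in category 2, with an Allen score of 8.5 and a p-value that rounds to 1. In XZ153 this position fell into category 3 and had a p-value of 0.929. HORVU1Hr1G079370.1 held 6 reads at position 680, category 2 in both libraries, while the same site on isoform 2 held 1 read in category 4 in ZD9 and was category 3 in XZ153. The highest counts per record of the families therefore fell on poorly paired positions.

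HORVU1Hr1G064560.20 at position 577 was the only category 0 record of the families in ZD9, on 2 reads, with an Allen score of 8.5 and a p-value of 0.408. No other small RNA was listed on that gene in ZD9. In XZ153 the same target bases were listed on isoform 16 in category 4. HORVU1Hr1G061380.1, at the lowest guide-strand Allen score of ZD9, 7, held 4 reads at position 1363 in category 2 with a p-value of 0.924, and isoform 2 held 1 read. HORVU1Hr1G022130 and HORVU2Hr1G032170 tied that score, each with 1 read on 2 isoforms in category 4. HORVU0Hr1G016330 held 3, 2 and 1 reads on its isoforms 1, 3 and 4, the first and second in category 2.

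HORVU0Hr1G004830 shows how 1 miR168-5p site spreads over isoforms. With an Allen score of 10 on all of them, it held 1, 3, 5, 3 and 3 reads on isoforms 2, 4, 5, 6 and 7 in ZD9, in categories 4, 3, 2, 3 and 3. Other small RNA names reached 185 reads on the same gene. In XZ153 it was listed on isoform 3 alone, in category 4.

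In XZ153 miR168 had 97 records on 74 genes and none in category 0 or 1. HORVU3Hr1G008400.2, cut at 700, had the lowest guide-strand Allen score, 6, with a ratio of 0.764, category 4 and a p-value of 0.845. HORVU4Hr1G009390.6 tied that score under the barley form, with a ratio of 0.661, also in category 4. The lowest p-value of the guide strand was 0.590, at position 425 of HORVU3Hr1G115990.1 in category 3, with an Allen score of 8.5. HORVU6Hr1G012510.1, cut at 862 under the barley form, had the lowest p-value in category 2, 0.625, and its isoform 2 was category 4. In XZ153 miR168 was listed on more genes than the other 2 families, and its lowest p-value was the highest of the 3. In ZD9 miR390 was listed on more genes, and miR168 had the lowest p-value of the 3, through its opposite arm.

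miR390 had its lowest p-value and its lowest Allen score under the opposite arm. Those with the lowest p-value, Allen score or category are shown with the best guide-strand sites, with capitals for paired bases.
HORVU5Hr1G109200.4, miR390-3p: GGAGgUUGGGGcGGAUGGCG
HORVU1Hr1G070110.15, miR390-3p: uGAGCUCAGaGAUGGUAGUG
HORVU3Hr1G038430.2, miR390-3p: aGAGUUCAGGAAGAUGGUG
HORVU2Hr1G018390.5, miR390-3p: cgcGCUCGGAUAGAUGGCa
HORVU1Hr1G071780.18, miR390-3p: GGAGCaAGGAUAGAcAGCc
HORVU4Hr1G007090.1, ata-miR390-5p: GGUGgcAUUCCUCCUgGAGCUg
HORVU2Hr1G010990.1, ata-miR390-5p: GGCGCUcggcUCCUUCCgGAGCag
HORVU3Hr1G087450.1, bna-miR390a_L+2: GGCGCUGggCCUCCUGGGCcgcg
HORVU5Hr1G109200.4, cut at 2492, had the lowest p-value of all members in XZ153, 0.0861, in category 1 with an Allen score of 7, and its isoform 1 was category 4. HORVU1Hr1G070110.15, cut at 1889, was category 0 with the same Allen score and a p-value of 0.301, and its isoform 5 was category 4. HORVU3Hr1G038430.2, cut at 759, had the lowest Allen score of the arm in XZ153, 5.5, in category 4, tied by HORVU5Hr1G096440.1. Neither arm therefore joined good pairing to a high read class.

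In ZD9 the miR390 reads were few. HORVU2Hr1G018390.5 held 2 reads at position 1246 in category 1, with an Allen score of 6 and a p-value of 0.687. HORVU1Hr1G071780 scored 5 on 3 isoforms and held 1 read on each, all in category 4. On the guide strand HORVU1Hr1G069560 held 2 reads on isoform 2 in category 2 and 1 read on isoform 1, with an Allen score of 10.5. All 4 records of bna-miR390a_L+2 and the single record of mtr-miR390_R+1 held 1 read.

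The miR390 guide strand in XZ153 had a lowest Allen score of 6, at position 1331 of HORVU4Hr1G007090.1, in category 4 with a p-value near 1. HORVU6Hr1G035000.1, cut at 1064, tied it, also in category 4. HORVU2Hr1G010990 held the only ata-miR390-5p positions listed on the same transcripts in both libraries. Its isoforms 1 and 3 were category 2 in XZ153, both with a p-value of 0.938, and category 4 with 1 read each in ZD9. The shifted form bna-miR390a_L+2 had a p-value of 0.234 at position 121 of HORVU3Hr1G087450.1, in category 4 with an Allen score of 10.5. The same transcript also carried hvu-miR168-5p at position 606, in category 4 with an Allen score of 14.5. No transcript carried more than 1 miR390 position in either list, with 34 records on 34 transcripts in ZD9 and 69 on 69 in XZ153.

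Category 4, the single reads, held 50 of 67 members in ZD9 and 140 of 185 in XZ153, where it held 66.2% and 73.4% of all records. By category, the ZD9 members held 1, 1, 10, 5 and 50 records in categories 0 to 4, and those of XZ153 held 2, 1, 29, 13 and 140. Categories 0 to 2 held 17.9% of members in ZD9 (exact Clopper-Pearson 95% interval 9.61 to 29.2) and 17.3% in XZ153 (12.1 to 23.5), where the shares of all records were 23.3% and 19.1%. Category 0 held 1.49% (0.0378 to 8.04) and 1.08% (0.131 to 3.85), against 1.7% and 1.49% of all records. All 4 intervals include the share of all records.

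**Figure D2:**
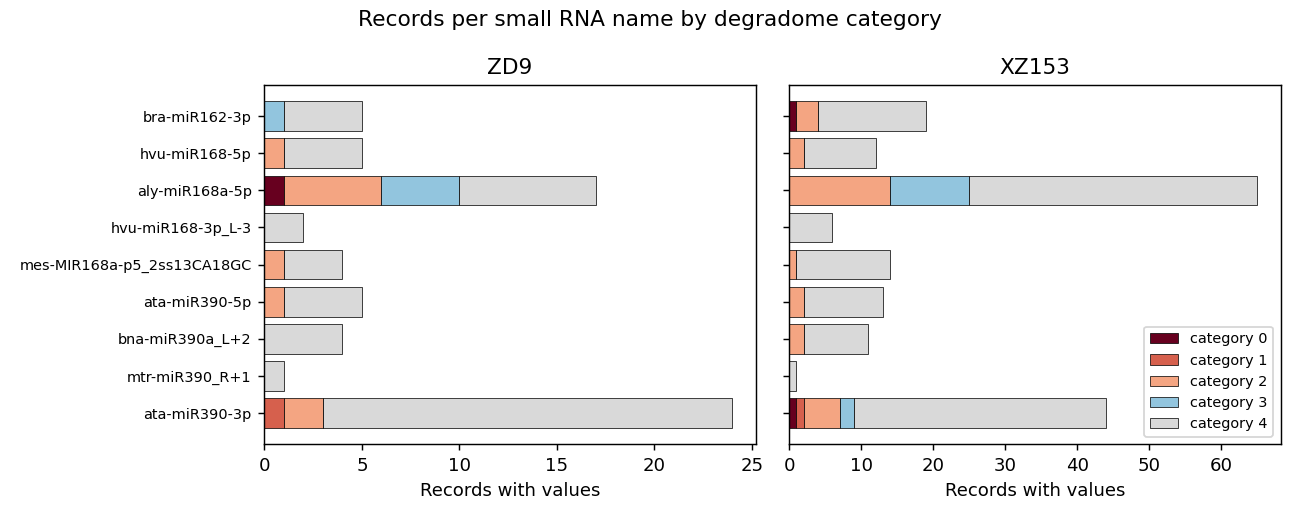
Number of records (x axis) of each small RNA name in ZD9 and XZ153, stacked by degradome category from 0, the highest position of the transcript, to 4, a single read. Category 4 is the largest block, with 50 of 67 records in ZD9 and 140 of 185 in XZ153.

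Raw reads, used for ZD9 alone, summed to 102 over the 67 member records, out of 34935 in the list. A single read was all that 50 of the 67 records held, 74.6%, against 66.2% of all ZD9 records. miR162 records held 1 to 2 reads, with 6 in all, and miR390 records 1 to 2, with 38 in all. miR168 records held 1 to 7 reads, with 58 in all: 16 records had 1 read, 4 had 2, 4 had 3, and 1 record each had 4, 5, 6 and 7. A p-value of at least 0.9 was given to 60 of 67 members in ZD9 and 156 of 185 in XZ153, and to 14341 of 15544 and 34735 of 40424 records overall.

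**Figure D3:**
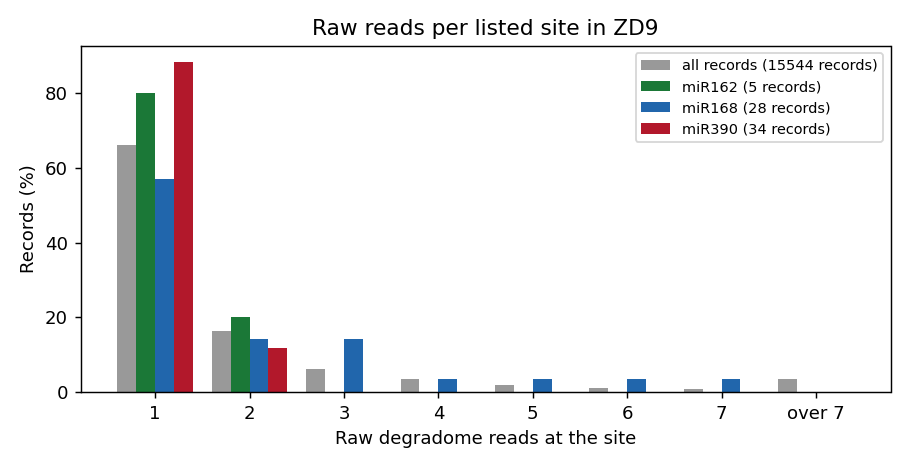
Share of ZD9 records (y axis, percent) by the number of raw degradome reads at the site (x axis) for all records and for miR162, miR168 and miR390. Single reads are the most frequent class in each, and of the 3 families miR168 alone reaches above 2 reads.

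Pairing along the guide strands had gaps in all 3 families. Positions count from the 5′ end of the small RNA, and the cut lies opposite positions 10 and 11. Isoforms that repeat a site are counted as separate records here. For miR162-3p none of the 5 ZD9 records, on 3 genes, was paired at positions 6, 7 and 8, inside the seed. In XZ153 7, 8 and 15 of 19 records were paired there, on 4, 5 and 10 of 13 genes. Positions 11 to 13 of miR162 were paired in all 19. About 90% of all records were paired at each of positions 6 to 8, so the gap of miR162 lies where the lists as a whole pair well.

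The gaps of miR390-5p lay at its 5′ end and in its 3′ part. Position 1 was paired in 0 of 6 records in ZD9 and 0 of 14 in XZ153, under ata-miR390-5p and mtr-miR390_R+1 together, where 48.7% and 48.9% of all records were paired. These records lay on 4 genes in ZD9 and 10 in XZ153. Position 2 was paired in 0 of 6 and 4 of 14, and position 15 in 2 of 6 and 5 of 14. Positions 7 and 14 were paired in 4 and 4 of 6 and in 9 and 8 of 14, and position 16 in 5 of 6 and 8 of 14.

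At the 3′ end, positions 20 and 21 of miR168-5p were paired in 7 and 5 of 22 records in ZD9 and in 38 and 17 of 77 in XZ153. This end was loose in miR162-3p too, where they were paired in 1 and 1 of 5 records in ZD9 and in 13 and 8 of 19 in XZ153. Of all records long enough, 73.8% and 64.7% were paired there in ZD9 and 74.2% and 65.7% in XZ153. Position 1 of miR162-3p was paired in 1 of 5 and 10 of 19. The differences between families were not tested. Both bases beside the cut were paired in 55 of 67 members in ZD9, 82.1%, and 160 of 185 in XZ153, 86.5%, against 81.5% and 82.3% of all records.

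**Figure D4:**
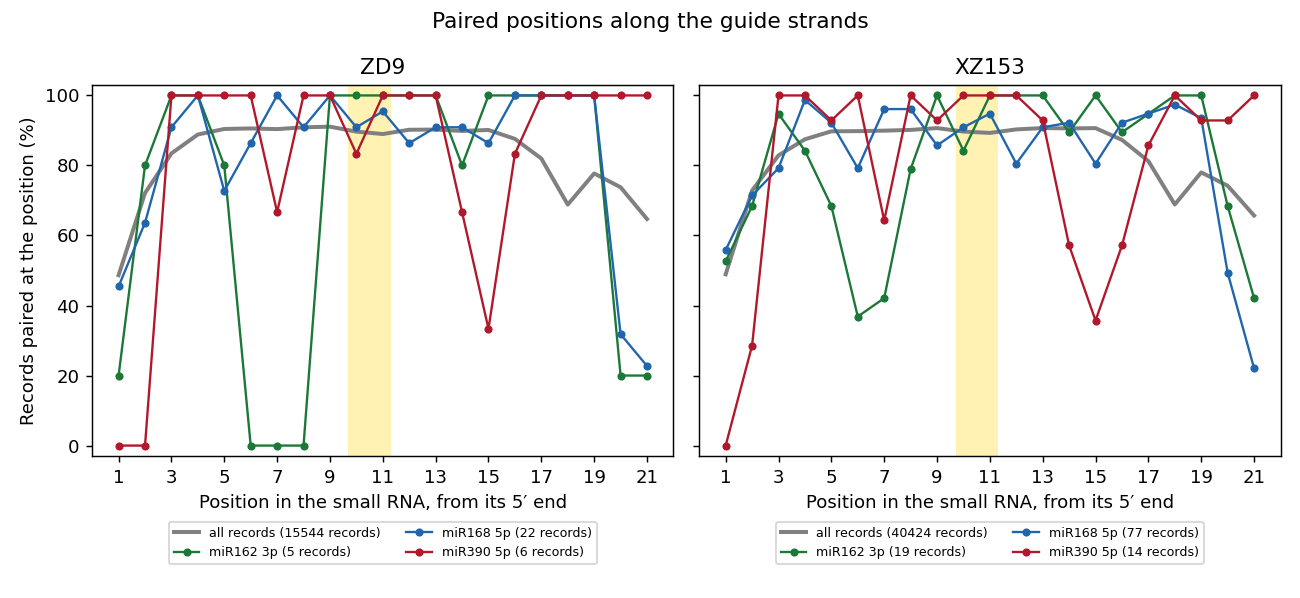
Share of records paired (y axis, percent) at each position from the 5′ end of the guide strand (x axis) in ZD9 and XZ153, for miR162-3p, miR168-5p, miR390-5p and all records, with positions 10 and 11 shaded. miR162-3p is low at positions 6, 7 and 21 in both libraries and at positions 1, 8 and 20 in ZD9. miR390-5p is low at positions 1, 2, 7, 14 and 15 in both and at position 16 in XZ153. miR168-5p is low at positions 20 and 21 in both and at position 5 in ZD9. Isoforms that repeat a site count separately.

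The deposited p-values also hold the rank of each alignment among all alignments of its small RNA to the transcripts, where 1 is the best. Within a name the ranks followed the free energy ratio, which did not rise with rank in any of 21423 neighbouring pairs in XZ153. Ranks thus ask how good the free energy ratio of the best listed site of a name was, whatever its reads or Allen score. In XZ153 the best listed rank was 37 for bra-miR162-3p and 62 for bna-miR390a_L+2, both ahead of the median of 217 over 867 names. It was 321 for hvu-miR168-3p_L-3, 348 for the hairpin-arm name, 425 for aly-miR168a-5p and 558 for ata-miR390-3p. By Allen score the order differed: the best score of bna-miR390a_L+2 was 9, behind 94.5% of names, and its site of rank 62 scored 10.5. For bra-miR162-3p the best score was 5, the median of all names. The guide strands hvu-miR168-5p, ata-miR390-5p and mtr-miR390_R+1 had best ranks of 1206, 1454 and 3247, behind 92.2%, 94.1% and 99.1% of the names. They rest on 12, 13 and 1 records, and a best rank can only improve as a name gains records. Each position stands under 1 name alone, so names of nearly the same sequence compete for it. The shares thus describe single names and do not grade the pairing of a family. In ZD9 the best ranks were 1021, 1745 and 719 for these 3 names, 637 for bra-miR162-3p and 287 for bna-miR390a_L+2. They were 17 for hvu-miR168-3p_L-3, 1216 for the hairpin-arm name, 758 for aly-miR168a-5p and 1350 for ata-miR390-3p. The ZD9 values end early, so these ranks cover fewer transcripts than those of XZ153 above. Over the shared IDs the XZ153 best ranks were 637 for bra-miR162-3p, 1353 for ata-miR390-3p, 1192 for aly-miR168a-5p and 348 for the hairpin-arm name. They were 1793 for hvu-miR168-3p_L-3, 1795 for bna-miR390a_L+2, 2506 for hvu-miR168-5p and 3409 for ata-miR390-5p. The order of the names thus also differed over the shared IDs. From the whole XZ153 list used here, alignments ranked better than 1206 for hvu-miR168-5p, 1454 for ata-miR390-5p and 3247 for mtr-miR390_R+1 were absent.

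Each position is listed once, under 1 name, so a cut of these families could in principle stand under another name. Each of the 9 small RNAs was therefore laid without gaps against the listed target of every record of another name, with the cut opposite position 10. None of 15477 records in ZD9 and none of 40239 in XZ153 reached a penalty of at most 4 for any of the 9, and the lowest penalties were 9.5 and 8.5. Bases beyond the listed target counted as unpaired. For small RNAs on their own targets this penalty came within 1 of the deposited Allen score for 83.6% and 84.1% of gap-free records, so it is an approximation. That agreement does not describe the search, where targets listed for shorter small RNAs leave bases unpaired and raise the penalty. Low penalties were thus harder to reach there.

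Sites of the families were shared between the libraries about as often as other sites. Over the shared IDs 9 records had the same name, transcript and position in both lists, 13.4% of the 67 in ZD9 (exact Clopper-Pearson 95% interval 6.33 to 23.97) and 25% of the 36 in XZ153 (12.1 to 42.2). Of all records 18.3% and 34% were shared. By family and gene 13 were shared, 35.1% of 37 and 46.4% of 28, against 31.7% and 47.4% over all families. They were 3 genes of miR162, 5 of miR168 and 5 of miR390. On HORVU0Hr1G005300 the family was the same but the name was not, with ata-miR390-5p in ZD9 and bna-miR390a_L+2 in XZ153, both in category 4, and this gene also held a supported record of another small RNA in each library.

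On HORVU1Hr1G078410, the miR162 gene described above, 64 records of 26 other names reached 21 reads and category 0 in ZD9, against 2 reads and category 3 for miR162.

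Families with well-known targets show what the same lists hold elsewhere. In XZ153 miR160 had supported records on 8 genes, miR169 on 13 and miR172 on 5, and in ZD9 on 1, 2 and 1. In XZ153 their lowest Allen scores were 0, 1 and 1, with best ranks of 1, 2 and 2. In ZD9 the same families reached 346, 62 and 148 reads at a position, against 7 for the families described here. These are the highest reads of any record of a family, supported or not. The compared families were also larger, which favours their extremes. miR160, miR169 and miR172 had 85, 1188 and 150 records with values in ZD9 and 221, 3653 and 386 in XZ153. miR162, miR168 and miR390 had 5, 28 and 34 in ZD9 and 19, 97 and 69 in XZ153. Lacking a supported site was still common: 114 of 164 families in XZ153, 69.5%, and 138 of 158 in ZD9, 87.3%, had none. Lacking any site with an Allen score of at most 4 was less so, with 58 of 164 families, 35.4%, in XZ153 and 90 of 158, 57.0%, in ZD9. Of the 137 families with at least 19 records in XZ153, the number miR162 had, 42 lacked such a site. Small RNA length was not matched in these comparisons.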

How the data were processed

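The analysis starts from 1 deposited table of CleaveLand output per library. Per the file headers each record gives a small RNA, a transcript, a cut position and its alignment. The Allen score and the category are deposited scores. The free energy ratio is a deposited fraction of perfect pairing. The p-value of each record is the authors' deposited value. The raw read count per site is deposited and was used for ZD9 only. Versions, aligner and transcript release: not given in the sources used here. Per the labels' protocols, poly(A) RNA was ligated to a 5′ adapter, amplified and read as single 50 nt reads.

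Isoforms were merged to genes by dropping the ID's suffix. Of the ZD9 records 1941 have no values, and 3 lines of ZD9 and 20 of XZ153 are not analysed here. The negative natural log of 1 minus p was divided by 1 unit per category and library and rounded to a whole number, taken as the rank. The unit was set so that values below 500 multiples were whole within 0.02. Larger multiples were rounded without that check. In lists of p-values simulated from a known unit, the unit was recovered in 20 of 20. Those p-values were built by the same formula without rounding, so this checks the calculation alone and not the ranks of deposited p-values near 1. Python 3.11.15, numpy 2.4.6, pandas 2.3.3, scipy 1.17.1 and matplotlib 3.10.9 were used.

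The members, lists and limits were chosen with earlier results of these data known. Named sites are, per family, arm and library, those with the lowest p-value, the lowest Allen score or the most reads, and shared sites in category 0 to 2. Other genes named are those on which a described contrast between isoforms, names or libraries rests, and were chosen after their values were seen. The rank, the search under other names and the pairing profile were also added after the data were seen. No test between cultivars was made. PCR copies are not independent molecules, so intervals cover counting error only.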

Additional observations from a re-analysis of the deposited data

How the results depend on the processing

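Of 43 alternative settings 27 left a count within 1.5 times its main value or a share within its interval, and 16 moved it. Where the main count was 0, stricter limits and narrower selections of records could only give 0 again. Those settings are among the 27 and do not show that a result is stable. In ZD9 the 37 genes became 67 when records were counted, 23 under guide-strand names alone, 11 in category 0 to 2, 1 in category 0 and 13 without category 4. The 28 genes of XZ153 over the shared IDs became 14 under guide-strand names, 138 over the whole list, 4 in category 0 to 2, 1 in category 0 and 5 without category 4. The 0 genes with an Allen score of at most 4 became 3 in ZD9 and 2 in the whole XZ153 list at a limit of 5. At a limit of 7 they became 8 and 36. The ZD9 counts cover the shared IDs alone, where XZ153 had 0 genes at a limit of 5. The 0 supported genes of the whole XZ153 list became 1 at a p-value limit of 0.1 and 2 at a limit of 0.2. No paired analysis was possible because each cultivar has 1 library. The limits are the lack of replicates, the unknown depth, the unknown potassium level of each library, the early end of the ZD9 values, and category 4 sites that rest on 1 read.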
